A study of Homo sapiens with 132 samples.

Results

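The messenger RNA of 10 cytokine genes was followed in 4 gastric cancer cell lines that had been treated with epidermal growth factor (EGF) or with drugs against receptors of the HER family. The genes were IL1A, IL1B, IL6, IL7, IL11, IL15, IL18, IL24, IL33 and LIF, and each was found by its symbol as 1 of the 65217 Ensembl gene identifiers counted in every library. The data comprised RNA sequencing libraries of 44 conditions with 3 replicates each. MKN1 and Hs746T cells were left untreated or received EGF (5 ng/ml), EGF with cetuximab (EGF+Cet), cetuximab alone (Cet, 1 µg/ml), trastuzumab (Tra, 5 µg/ml), afatinib (Afa, 0.5 µM) or trastuzumab with afatinib (Tra+Afa), for 4 h or 24 h, which gave 42 libraries per line. MKN7 and NCI-N87 cells received Tra, Afa, Tra+Afa or no treatment, which gave 24 libraries per line. Cetuximab is an antibody against EGFR, trastuzumab is an antibody against HER2, and afatinib is a kinase inhibitor that acts on both receptors and on HER4. All 4 lines came from metastases of gastric carcinomas, Hs746T was grown in DMEM and the others in RPMI, and afatinib was compared with untreated cells rather than with cells given its solvent.

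Interleukins are secreted proteins with which cells signal to each other, mostly through receptors that activate STAT or NF-kB transcription factors. IL-6, IL-11 and LIF belong to one family that signals through the shared receptor chain gp130 and STAT3. IL-1α, IL-1β, IL-18 and IL-33 belong to the IL-1 family, whose receptors signal to NF-kB. IL-7 and IL-15 act on lymphocytes through receptors with the common gamma chain, and IL-24 belongs to the IL-10 family. In epithelial cells several of these genes are known to respond to EGFR and MAP kinase signaling.

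Promoter sequences from RefSeq (GRCh38.p14) were matched for 6 of the 10 genes, and 3 are shown. In MKN7 cells IL11 and IL24 fell with afatinib and IL6 rose. These genes did not have the largest changes, since IL1A and IL1B fell further in MKN7. Capitals mark letters of an AP-1 motif (TGANTCA) or the NF-kB motif (named only), both searched on both strands. The IL11 window lies on the minus strand at chr19:55370464-55370613, the IL24 window on the plus strand at chr1:206897293-206897442, and the IL6 window on the plus strand at chr7:22727050-22727146, each read 5′ to 3′ from 150 bases before the start of the RefSeq transcript.
IL11: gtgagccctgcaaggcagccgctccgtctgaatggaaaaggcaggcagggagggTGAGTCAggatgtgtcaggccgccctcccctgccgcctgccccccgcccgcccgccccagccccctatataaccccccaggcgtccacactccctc
IL24: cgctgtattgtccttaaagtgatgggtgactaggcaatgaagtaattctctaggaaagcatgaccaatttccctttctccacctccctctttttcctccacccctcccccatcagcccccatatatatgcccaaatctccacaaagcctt
IL6: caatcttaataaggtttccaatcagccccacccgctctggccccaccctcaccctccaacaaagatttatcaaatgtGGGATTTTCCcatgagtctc
The IL11 window held 1 AP-1 match, the IL6 window held 1 NF-kB match, and neither set of letters was in the IL24 window. IL1A, which is not shown, also held AP-1 letters in the 250 bases before its start. Among 35116 RefSeq promoters, 6.57% held the AP-1 letters and 0.527% the NF-kB letters in the 250 bases before the start. These matches describe the sequence and do not identify a bound factor.

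Levels are given as CPM, the counts of a gene per 1000000 counts of its library, and are compared within a gene only, since no length correction was made. Total counts per library ranged from 25832557 to 69434151 with a median of 50725775, so 3 counts correspond to 0.0432 CPM in the deepest library and to 0.116 CPM in the shallowest. Of 7 epithelial marker genes, all 7 had a median of at least 1 CPM in each line but Hs746T, in which 5 did. LIF, IL6, IL7 and IL18 overlap genes on the opposite strand, among them LIF-AS1 at LIF. The libraries were directional but the strand setting of the counting is not given in the sources used here. Reads of these neighbours may therefore be included, or reads in the overlaps left out. IL18 itself had 0 counts in every library. In bulk RNA, fewer producing cells and less RNA per cell cannot be told apart. Nothing in the labels says that replicates came from separate cultures, so p-values measure only the spread between these libraries.

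In untreated cells the line with the highest level differed between genes, and MKN1 was highest in none of the following. LIF was highest in NCI-N87, IL24, IL6, IL1A and IL1B were highest in MKN7, and IL7 and IL15 were highest in Hs746T. LIF, which maintains stem cells and signals through gp130, had 108 CPM in the lowest, 144 CPM in the median and 200.3 CPM in the highest of the 6 untreated NCI-N87 libraries. In MKN7 the corresponding LIF levels were 49.7, 73.1 and 105 CPM, in Hs746T they were 52.1, 57.1 and 62.2 CPM, and in MKN1 they were 5.96, 13.4 and 19.7 CPM. The LIF ranges of NCI-N87 and MKN1 overlapped with those of no other line, whereas those of MKN7 and Hs746T overlapped each other. On the log2 scale LIF was lower by 0.96 ± 0.11 (SE) in MKN7 than in NCI-N87 (edgeR adjusted p = 7.16e-08), and Hs746T in turn was lower than MKN7 by 0.42 ± 0.11 (edgeR adjusted p = 0.00196). That last difference was not significant without replicate 3 (adjusted p = 0.0518). MKN1 was lower than Hs746T by 2.23 ± 0.12 (edgeR adjusted p = 6.64e-14).

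IL11, a gp130 cytokine with roles in mucosal repair and fibrosis, had lowest, median and highest untreated levels of 7.47, 21.4 and 28.99 CPM in MKN7, 4.63, 15.8 and 25.2 CPM in MKN1, 9.10, 14.6 and 17.0 CPM in Hs746T, and 2.17, 2.62 and 2.89 CPM in NCI-N87. All NCI-N87 libraries were below those of the other lines, by 2.23 to 2.94 on the log2 scale. MKN1 and Hs746T did not differ beyond their spread (log2 difference -0.15 ± 0.22, edgeR adjusted p = 0.534). MKN7 exceeded MKN1 by 0.71 ± 0.22 (edgeR adjusted p = 0.00658, and 0.0604 without replicate 1).

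IL6, which drives acute-phase and STAT3 responses, was highest in MKN7, with 7.93, 13.8 and 19.0 CPM in the lowest, median and highest untreated library. MKN1 had 0.447, 1.55 and 3.51 CPM, Hs746T had 0.0774, 0.288 and 0.427 CPM, and NCI-N87 had 0 to 0.0774 CPM, with 5 of the 6 libraries at 3 counts or fewer. Summed over the 6 untreated libraries NCI-N87 held 10 counts of IL6 and Hs746T 91, a CPM ratio of 9.28 (95% exact counting interval 4.82 to 20), and MKN7 held 3818, a ratio of 398 (216 to 831). IL24, a cytokine of the IL-10 family, was abundant in 2 lines only, with 9.06, 32.8 and 64.4 CPM in MKN7 and 6.495, 8.02 and 10.2 CPM in Hs746T. It was at 0.0946 to 0.465 CPM in MKN1 and at 0.0544 to 0.135 CPM in NCI-N87, and those 2 lines did not differ significantly (edgeR adjusted p = 0.0823). The difference in IL24 between MKN7 and Hs746T was 1.99 ± 0.26 on the log2 scale (edgeR adjusted p = 2.92e-07).

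IL1A, IL1B and IL33 messages were low in every line. IL1A, whose product acts as an alarm signal from damaged epithelium, reached 1.36, 2.47 and 7.62 CPM in MKN7 (lowest, median and highest) and 1.25, 1.55 and 2.05 CPM in Hs746T. NCI-N87 had 0.190, 0.437 and 1.04 CPM and MKN1 had 0.0670, 0.112 and 0.181 CPM of IL1A. IL1B, which encodes the main secreted form of IL-1, was at 0.820 to 2.41 CPM in untreated MKN7 cells and at 0.650 CPM or less in the other lines. MKN7 exceeded each other line in IL1B by 1.92 to 2.47 on the log2 scale, and the other lines did not differ from each other (edgeR adjusted p = 0.277 to 0.612). The IL1A difference between MKN7 and Hs746T rested on replicate 3, without which its adjusted p was 0.160. IL33, a nuclear alarmin of epithelial cells, did not exceed 0.0810 CPM in any untreated library.

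IL7 and IL15, which support lymphocyte survival, were both highest in Hs746T cells. IL7 had 8.95, 10.3 and 12.4 CPM in Hs746T (lowest, median and highest), and its medians were 2.87 CPM in MKN7, 2.25 CPM in MKN1 and 1.98 CPM in NCI-N87. IL15 had 11.5, 21.2 and 23.4 CPM in Hs746T, and its medians were 3.97 CPM in MKN7, 3.12 CPM in NCI-N87 and 2.33 CPM in MKN1. No untreated Hs746T library overlapped those of another line in either gene. MKN1 and NCI-N87 did not differ significantly in IL7 (log2 difference 0.15 ± 0.10, edgeR adjusted p = 0.177) or in IL15 (-0.30 ± 0.16, edgeR adjusted p = 0.0972).

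Genes were called regulated where the edgeR adjusted p was below 0.05 and the absolute log2 fold change (log2FC) was above 1. Statements that compared groups did not overlap are descriptions and not tests, and the share of all genes without overlap was not determined. Between 24 h and 4 h in untreated Hs746T cells, 4 of the 8 genes tested did not overlap and 0 were regulated. Of the 8 genes that could be tested between untreated lines, 6 were regulated between MKN1 and Hs746T, 5 between MKN1 and MKN7, 4 between MKN1 and NCI-N87, 6 between Hs746T and MKN7, 7 between Hs746T and NCI-N87, and 5 between MKN7 and NCI-N87. The share of all genes regulated in the same 6 comparisons was 48.2%, 41.8%, 45.8%, 46.8%, 49.6% and 44.7%. With the replicate number as a block, 5 of the 8 genes were regulated between MKN1 and NCI-N87. Of all 20560 genes tested, 5175 were then higher and 4253 lower.

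**Figure D1:**
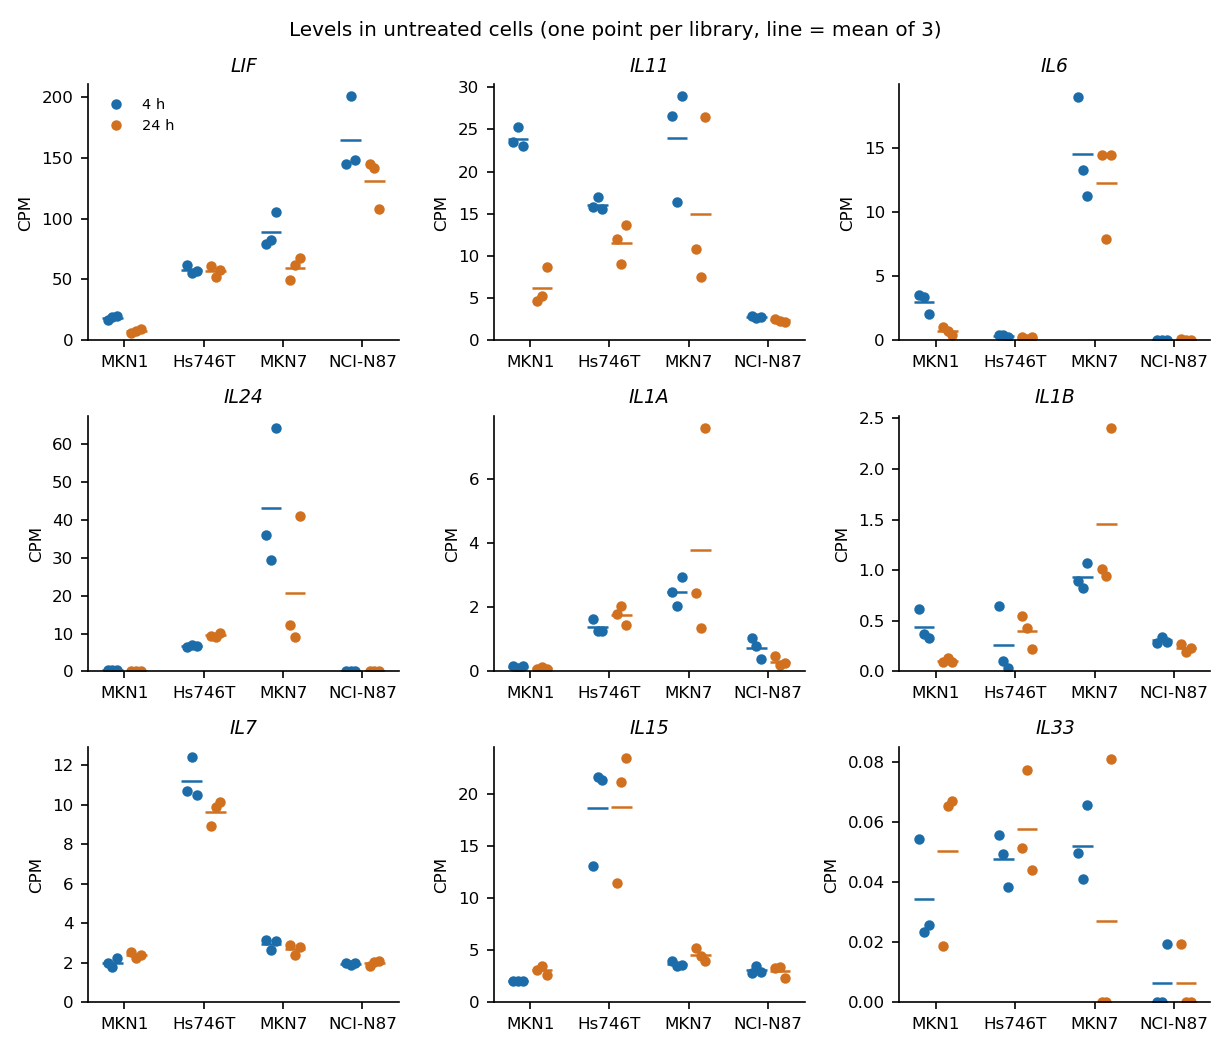
Levels of 9 cytokine genes in untreated cells of the 4 lines, in CPM on a linear axis from 0, with 4 h libraries in blue and 24 h libraries in orange, 1 point per library. LIF reached 200.3 CPM in NCI-N87, IL24 reached 64.4 CPM in MKN7, and IL7 and IL15 were highest in Hs746T.

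The next question was how EGF, the ligand of EGFR, and cetuximab changed these messages in MKN1 cells. LIF and IL11 rose with EGF at both times and fell with cetuximab alone, LIF falling by less than 1 on the log2 scale at 24 h. IL1B and IL33 rose with EGF from low levels at both times, and IL24 rose at 24 h. IL6 and IL1A did not pass the test in any of these comparisons.

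LIF in untreated MKN1 cells at 4 h was at 17.1, 19.5 and 19.7 CPM in replicates 1 to 3. It was at 62.2, 58.2 and 55.7 CPM after EGF, at 36.2, 37.8 and 42.1 CPM after EGF+Cet and at 7.45, 9.54 and 6.61 CPM after Cet. These 4 groups did not overlap and were ordered EGF, EGF+Cet, untreated and Cet. The log2FC against untreated cells was 1.75 ± 0.16 with EGF (edgeR adjusted p = 2.12e-09), 1.10 ± 0.16 with EGF+Cet (edgeR adjusted p = 0.000154) and -1.32 ± 0.17 with Cet (edgeR adjusted p = 9.18e-06). At 24 h LIF was at 5.96, 8.13 and 9.65 CPM in untreated cells, at 16.8, 17.1 and 20.6 CPM after EGF, at 9.84, 13.1 and 11.6 CPM after EGF+Cet and at 4.45, 5.77 and 4.93 CPM after Cet. The order of the groups was the same as at 4 h. The log2FC was 1.40 ± 0.17 with EGF (edgeR adjusted p = 8.2e-08), 0.66 ± 0.17 with EGF+Cet (edgeR adjusted p = 0.00490) and -0.73 ± 0.17 with Cet (edgeR adjusted p = 0.00536), which without replicate 3 gave an adjusted p of 0.216. The rise of LIF with EGF+Cet at 24 h was not significant without replicate 1 (adjusted p = 0.0952) or 2 (0.0791).

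IL11 moved in the same directions as LIF. At 4 h it was at 23.5, 25.2 and 23.0 CPM in untreated cells, at 68.3, 74.4 and 48.4 CPM after EGF, at 41.3, 49.5 and 38.9 CPM after EGF+Cet and at 11.03, 11.95 and 7.89 CPM after Cet. At 24 h the values were 4.63, 5.30 and 8.66 CPM in untreated cells, 21.9, 22.9 and 23.6 CPM after EGF, 12.5, 13.1 and 13.8 CPM after EGF+Cet and 3.15, 3.26 and 3.14 CPM after Cet. Untreated libraries overlapped with none of the treated groups at either time. IL11 rose with EGF by 1.52 ± 0.21 on the log2 scale at 4 h (edgeR adjusted p = 4.83e-06) and by 2.08 ± 0.23 at 24 h (edgeR adjusted p = 1.43e-08). Cetuximab alone gave a log2FC of -1.29 ± 0.22 at 4 h (edgeR adjusted p = 0.000466, and 0.0605 without replicate 1) and of -1.04 ± 0.24 at 24 h (edgeR adjusted p = 0.00424). The latter change was just past the limit of 1, and it was -0.71 without replicate 3 and -0.96 with scaling by library size alone, where it still passed the adjusted p but was not regulated. With EGF+Cet the log2FC against untreated cells was 0.91 ± 0.21 at 4 h (edgeR adjusted p = 0.0279, and 0.644 and 0.379 without replicate 1 and 2) and 1.199 ± 0.22 at 24 h (edgeR adjusted p = 0.000266, and 0.0824 without replicate 1).

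IL1B in MKN1 cells was at 0.615, 0.372 and 0.333 CPM in untreated cells and at 1.47, 0.853 and 0.709 CPM after EGF at 4 h. At 24 h it was at 0.0946, 0.131 and 0.0893 CPM in untreated cells, at 1.09, 0.765 and 0.485 CPM after EGF and at 0.390, 0.346 and 0.212 CPM after EGF+Cet. EGF-treated libraries were above all untreated ones at both times. The log2FC with EGF was 1.30 ± 0.38 at 4 h (edgeR adjusted p = 0.0307) and 3.07 ± 0.48 at 24 h (edgeR adjusted p = 6.95e-06), and with EGF+Cet at 24 h it was 1.71 ± 0.53 (edgeR adjusted p = 0.0207). The 4 h call was lost without any 1 of the 3 replicates (adjusted p = 0.0720 to 0.251), and the EGF+Cet call without replicate 1 (0.239) or 2 (0.107).

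IL24 at 24 h was at 0.0946, 0.175 and 0.179 CPM in untreated MKN1 cells and at 0.253, 0.483 and 0.243 CPM after EGF, with a log2FC of 1.34 ± 0.48 (edgeR adjusted p = 0.0292). This call did not hold without replicate 1 (adjusted p = 0.0932) or 2 (0.230). IL33 was at 0.0543, 0.0233 and 0.0256 CPM in untreated cells and at 0.447, 0.261 and 0.293 CPM after EGF at 4 h. By 24 h it was at 0.0189, 0.0654 and 0.0670 CPM in untreated cells and at 0.487, 0.121 and 0.224 CPM after EGF. Untreated and EGF-treated libraries did not overlap in IL33, but the counts were few. Summed over 3 libraries there were 5 counts in untreated cells and 58 after EGF at 4 h, a CPM ratio of 9.49 (95% exact counting interval 3.84 to 30.3), and 7 and 43 counts at 24 h, a ratio of 5.70 (2.54 to 15.02). These intervals cover counting error only. The IL33 log2FC was 3.25 ± 0.67 at 4 h (edgeR adjusted p = 0.00126) and 2.63 ± 0.64 at 24 h (edgeR adjusted p = 0.00168), and both calls were lost without replicate 1 (adjusted p = 0.0896 and 0.229). With EGF+Cet at 4 h IL33 was at 0.210, 0.450 and 0.139 CPM (log2FC 2.83 ± 0.70, edgeR adjusted p = 0.0411), a call lost without any 1 replicate (0.146 to 0.551).

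IL15 moved the other way at 24 h. It was at 3.14, 3.53 and 2.61 CPM in untreated MKN1 cells and at 1.66, 1.95 and 1.81 CPM after EGF, without overlap, and fell by 0.57 ± 0.14 on the log2 scale (edgeR adjusted p = 0.00187). The log2FC of IL15 with EGF+Cet at 24 h was -0.46 ± 0.14 (edgeR adjusted p = 0.0204). IL7 rose with Cet at 24 h, from 2.53, 2.27 and 2.39 CPM to 3.56, 4.09 and 3.63 CPM (log2FC 0.57 ± 0.13, edgeR adjusted p = 0.00409). Without replicate 1 the adjusted p of IL15 was 0.0776 with EGF and 0.422 with EGF+Cet, and without replicate 2 that of IL7 with Cet was 0.0888.

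Counted over the 9 genes tested in MKN1, EGF left 4 regulated higher at 4 h and 5 at 24 h, where 1.23% and 2.11% of all genes were regulated higher and 0.247% and 6.24% lower. EGF+Cet left 2 higher at each time, with 0.101% and 0.540% of all genes higher and 0.0151% and 2.84% lower. Cet left 2 lower at 4 h and 1 at 24 h, with 0.257% and 0.328% of all genes lower and 0.0757% and 1.00% higher. The members regulated with EGF were all higher and those regulated with Cet were all lower.

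Cetuximab given with EGF was also compared with EGF alone. Without a replicate block none of the 9 genes was regulated at 4 h or 24 h, where 0.126% and 0.156% of all genes were. LIF passed the adjusted p at both times with changes below the limit of 1 (log2FC -0.66 ± 0.16 at 4 h, edgeR adjusted p = 0.0331, and -0.73 ± 0.16 at 24 h, edgeR adjusted p = 0.0207), and so did IL11 at 24 h (-0.88 ± 0.21, edgeR adjusted p = 0.0449). Both LIF calls were lost without any 1 replicate (adjusted p = 0.0890 to 0.493 at 4 h and 0.162 to 0.169 at 24 h), and that of IL11 without replicate 1 (0.409) or 2 (0.501). With the replicate number as a block, IL11 also passed at 4 h (-0.62, adjusted p = 0.0423). The log2FC of IL1B at 24 h was -1.36 ± 0.40 (edgeR adjusted p = 0.123), and with the block it was regulated lower (-1.36, adjusted p = 0.00880).

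Marker genes of fibroblasts and of other cell types moved in the same MKN1 libraries at 24 h. The summed level of 7 fibroblast markers was 93.5 to 191 CPM in untreated cells, 36.0 to 40.4 CPM after EGF, 44.5 to 46.3 CPM after EGF+Cet, 313 to 382 CPM after Cet and 360 to 400.4 CPM after Afa, with no marker at 0. DCN (log2FC -3.33) and COL3A1 (-2.21) were among 4 that were regulated lower with EGF, and 4 were regulated higher with Cet and with Afa. At 4 h the sums were 74.5 to 110 CPM in untreated cells and 69.4 to 97.1 CPM after EGF. Of 7 epithelial markers, ESRP1 (-1.36) and CDH1 (-1.35) were regulated lower with EGF at 24 h and CDH1 was regulated higher with Cet (1.01), while their summed level was 17840 to 19150 CPM in untreated cells, 16970 to 21230 CPM after EGF and 16730 to 20190 CPM after Cet. The immune cell marker CSF1R was regulated lower with EGF (-1.12) and higher with Afa (1.46), and the endothelial marker CDH5 higher with Afa (2.71). CDH5 was at 0.189 CPM or less in untreated cells. The sum of 4 endothelial markers at 24 h was 12.3 to 28.8 CPM untreated and 9.9 to 21.5 CPM after Afa. The part of these markers in the cytokine changes was not tested.

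**Figure D2:**
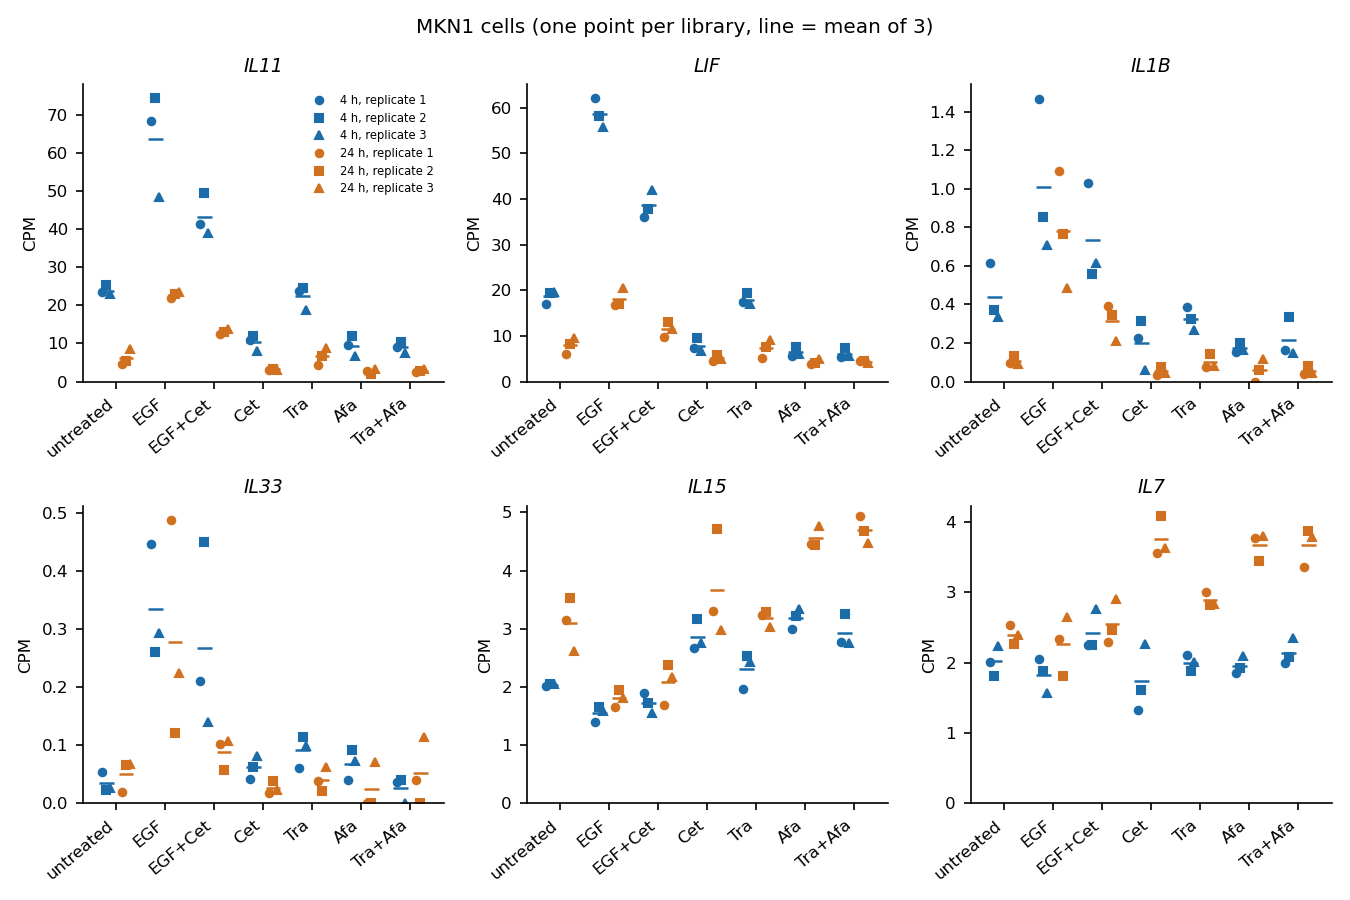
Levels of IL11, LIF, IL1B, IL33, IL15 and IL7 in MKN1 cells by treatment, in CPM on linear axes from 0, with 4 h libraries in blue and 24 h libraries in orange, 1 point per library. IL11 and LIF were highest with EGF (up to 74.4 and 62.2 CPM at 4 h) and lower with Cet, Afa and Tra+Afa than in untreated cells.

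Afatinib lowered LIF in each line but Hs746T, and IL11 in MKN1 and MKN7. In MKN7 it also lowered IL24 at both times and IL1A and IL1B at 24 h, while IL6 rose at 24 h. IL15 rose by less than 1 on the log2 scale in all 3 lines at both times. IL7 was regulated higher in NCI-N87 at 24 h, by a change close to the limit of 1. EGR1, DUSP6 and SPRY4, transcripts that follow EGFR and MAP kinase activity, were regulated lower, 3 of 3, with afatinib in each of these lines at both times and in none of the Hs746T comparisons.

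In MKN1 cells at 4 h, LIF was at 5.66, 7.64 and 6.07 CPM after Afa and IL11 at 9.67, 11.9 and 6.82 CPM, all below the untreated libraries given above. LIF fell by 1.63 ± 0.17 (edgeR adjusted p = 9.47e-08) and IL11 by 1.43 ± 0.22 on the log2 scale (edgeR adjusted p = 5.01e-05). At 24 h IL11 was at 2.63, 1.99 and 3.21 CPM, a log2FC of -1.34 ± 0.24 (edgeR adjusted p = 0.000110), and LIF was at 3.79, 4.16 and 5.03 CPM, a log2FC of -0.96 ± 0.17 (edgeR adjusted p = 0.000112). Again no treated library reached an untreated one. IL15 rose from 2.01, 2.05 and 2.05 CPM to 2.997, 3.21 and 3.34 CPM at 4 h (log2FC 0.55 ± 0.14, edgeR adjusted p = 0.0219) and to 4.46, 4.44 and 4.77 CPM at 24 h (0.47 ± 0.14, edgeR adjusted p = 0.00943). IL7 rose to 3.77, 3.45 and 3.80 CPM at 24 h (0.53 ± 0.13, edgeR adjusted p = 0.00240). The IL15 call at 4 h was lost without any 1 replicate (adjusted p = 0.0643 to 0.220) and that at 24 h without replicate 1 (0.0723) or 3 (0.192). IL1B at 4 h was at 0.156, 0.1997 and 0.164 CPM after Afa (log2FC -1.46 ± 0.46, edgeR adjusted p = 0.0727), and with the replicate number as a block it was regulated lower (-1.42, adjusted p = 0.0148). Of all genes, 0.242% were regulated higher and 0.439% lower at 4 h, where 0 and 2 of the 9 were, and 3.17% and 1.02% at 24 h, where 0 and 1 were.

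MKN7 cells showed the widest change among these genes. LIF at 4 h was at 78.8, 82.3 and 105 CPM in untreated cells and at 32.8, 30.7 and 32.6 CPM after Afa, and fell by 1.55 ± 0.14 on the log2 scale (edgeR adjusted p = 7.37e-08). At 24 h LIF was at 49.7, 61.8 and 67.5 CPM in untreated cells and at 27.3, 28.2 and 35.2 CPM after Afa (log2FC -1.10 ± 0.14, edgeR adjusted p = 1.38e-06). Treated and untreated libraries did not overlap at either time. IL24 at 4 h was at 36.2, 29.3 and 64.4 CPM in untreated cells and at 13.3, 12.6 and 15.9 CPM after Afa (log2FC -1.71 ± 0.51, edgeR adjusted p = 0.0177). After 24 h it was at 12.2, 9.06 and 41.1 CPM in untreated cells and at 4.34, 3.15 and 7.55 CPM after Afa (log2FC -2.19 ± 0.53, edgeR adjusted p = 0.00171). IL24 libraries of the 2 groups were separate at both times, and untreated replicate 3 was the highest at each.

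IL11 in MKN7 cells at 4 h was at 26.5, 16.4 and 28.99 CPM in untreated cells and at 15.8, 7.67 and 8.57 CPM after Afa. The groups were adjacent without overlap, and the log2FC was -1.24 ± 0.43 (edgeR adjusted p = 0.0415). At 24 h IL11 was at 10.8, 7.47 and 26.5 CPM in untreated cells and at 3.46, 2.29 and 4.09 CPM after Afa (log2FC -2.32 ± 0.46, edgeR adjusted p = 0.000275). IL1A at 24 h was at 2.45, 1.36 and 7.62 CPM in untreated cells and at 0.611, 0.275 and 0.489 CPM after Afa (log2FC -3.19 ± 0.57, edgeR adjusted p = 8.54e-05). IL1B at 24 h was at 1.02, 0.939 and 2.41 CPM in untreated cells and at 0.204, 0.189 and 0.157 CPM after Afa (log2FC -3.09 ± 0.49, edgeR adjusted p = 2.07e-05). For all 3 genes the untreated libraries at 24 h lay above every treated one, and replicate 3 of untreated cells stood apart from the other 2. The IL11 call at 4 h was lost without any 1 replicate (adjusted p = 0.0634 to 0.162) and in DESeq2 (0.0502), and that of IL24 at 4 h without replicate 1 (0.147).

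IL6 went in the opposite direction in MKN7. It was at 14.5, 7.93 and 14.4 CPM in untreated cells and at 27.9, 17.2 and 41.7 CPM after Afa at 24 h, without overlap, and rose by 1.12 ± 0.34 on the log2 scale (edgeR adjusted p = 0.00845). Without replicate 1 its adjusted p was 0.0525, and without replicate 3 it was 0.0930. At 4 h IL6 was at 19.0, 13.2 and 11.2 CPM in untreated cells and at 21.5, 19.6 and 21.1 CPM after Afa, a difference that did not pass the test. IL15 rose from 3.92, 3.49 and 3.57 CPM to 7.05, 5.30 and 7.28 CPM at 4 h (log2FC 0.76 ± 0.17, edgeR adjusted p = 0.00206) and by 0.41 ± 0.16 at 24 h (edgeR adjusted p = 0.0407). These IL15 calls were lost without replicate 3 (adjusted p = 0.0546 at 4 h and 0.255 at 24 h), and that at 24 h also without replicate 2 (0.124). IL7 fell by 0.45 ± 0.16 on the log2 scale at 4 h (edgeR adjusted p = 0.0429, and 0.128 to 0.190 without any 1 replicate). IL1A at 4 h was at 2.48, 2.05 and 2.93 CPM in untreated cells and at 1.26, 0.976 and 1.23 CPM after Afa (log2FC -1.18 ± 0.52, edgeR adjusted p = 0.112), and with the replicate number as a block it was regulated lower (-1.195, adjusted p = 0.0125). Of the 8 genes tested, 3 were regulated lower at 4 h, where 1.59% of all genes were lower and 1.81% higher. At 24 h 5 were lower and 1 was higher, where 3.25% of all genes were lower and 10.3% higher. In the same 24 h libraries the fibroblast marker PDGFRB (1.70), the endothelial marker CDH5 (1.59) and the immune cell marker PTPRC (1.55) were regulated higher, the sum of 7 fibroblast markers was 14.7 to 20.2 CPM untreated and 23.1 to 28.8 CPM after Afa, and that of 7 epithelial markers was 6137 to 6913 CPM and 4737 to 5499 CPM. CDH5 was at 0.124 CPM or less and PTPRC at 0.1883 CPM or less in untreated cells. The sum of 4 endothelial markers at 24 h was 0.460 to 1.49 CPM untreated and 0.841 to 1.16 CPM after Afa. The part of the marker genes in the cytokine changes was not tested.

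**Figure D3:**
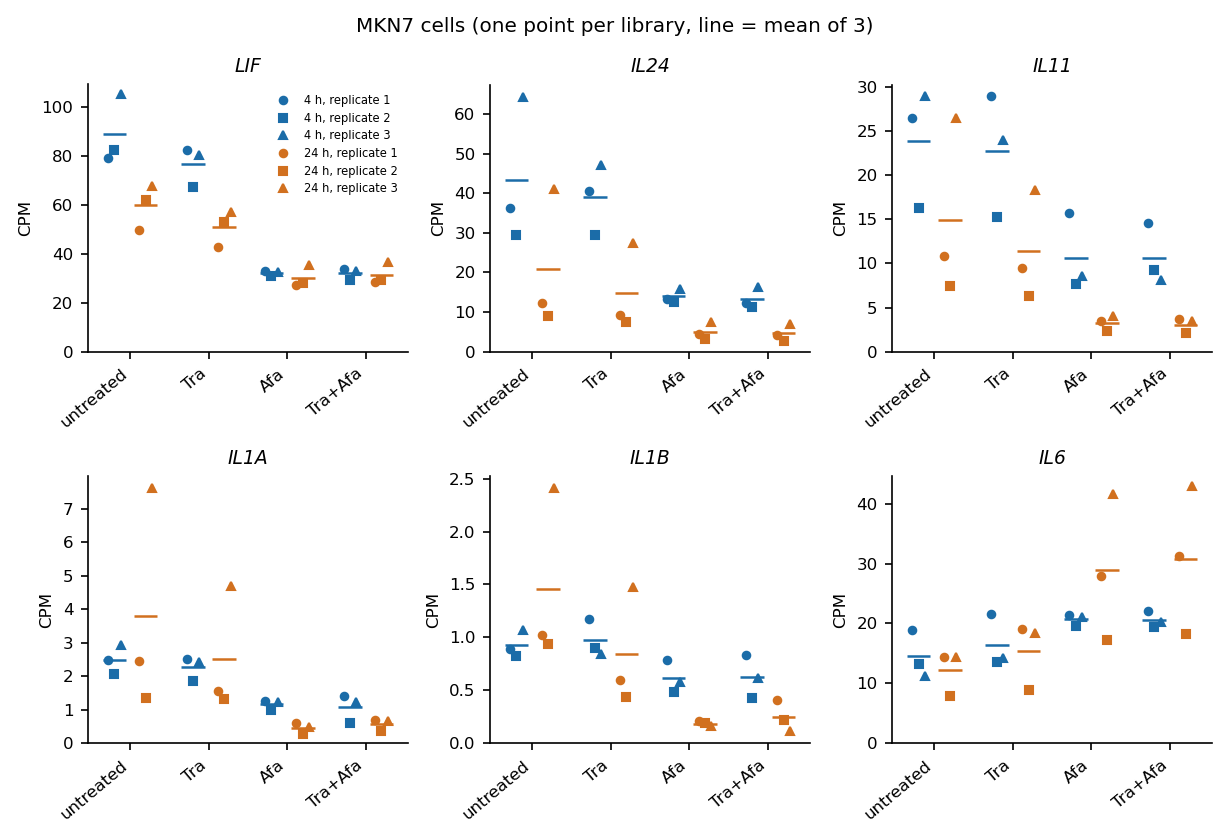
Levels of LIF, IL24, IL11, IL1A, IL1B and IL6 in MKN7 cells by treatment, in CPM on linear axes from 0, with 4 h libraries in blue and 24 h libraries in orange, 1 point per library. Afa and Tra+Afa libraries lay below untreated ones for LIF, IL24 and IL11, and above them for IL6 at 24 h, when untreated IL24 ranged from 9.06 to 41.1 CPM.

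In NCI-N87 cells LIF showed the largest change among the 6 genes that could be tested. It was at 144, 200.3 and 148 CPM in untreated cells and at 41.7, 51.4 and 40 CPM after Afa at 4 h, and fell by 1.96 ± 0.14 on the log2 scale (edgeR adjusted p = 4.20e-09). At 24 h it was at 144, 141 and 108 CPM in untreated cells and at 36.7, 33.2 and 33.6 CPM after Afa (log2FC -2.18 ± 0.15, edgeR adjusted p = 3.49e-11). The lowest untreated LIF library remained above the highest treated one by a wide margin at both times. IL7 at 24 h was at 1.86, 2.02 and 2.08 CPM in untreated cells and at 5.77, 5.22 and 3.74 CPM after Afa (log2FC 1.04 ± 0.18, edgeR adjusted p = 3.64e-05). This change was 0.91 without replicate 1, and 0.99 ± 0.18 for Tra+Afa against untreated cells (edgeR adjusted p = 6.04e-05), both below the limit of 1. At 4 h IL7 rose from 1.97, 1.89 and 1.99 CPM to 3.02, 3.64 and 2.88 CPM (0.63 ± 0.18, edgeR adjusted p = 0.0162). Treated and untreated libraries did not overlap in IL7. IL15 rose from 2.82, 3.47 and 2.90 CPM to 5.00, 5.33 and 4.35 CPM at 4 h (0.60 ± 0.15, edgeR adjusted p = 0.00550) and by 0.38 ± 0.15 at 24 h (edgeR adjusted p = 0.0291). At 4 h the calls of IL7 and IL15 were lost without replicate 1 (adjusted p = 0.104 and 0.103) or 2 (0.192 and 0.0683), and at 24 h that of IL15 without replicate 1 (0.0505) or 3 (0.216). IL11 at 4 h had a log2FC of -0.42 ± 0.17 (edgeR adjusted p = 0.101), which passed with the replicate number as a block (-0.42, adjusted p = 0.0344). Of the 6 genes tested 1 was regulated lower at each time and 1 higher at 24 h, where 1.22% and 2.03% of all genes were lower and higher at 4 h and 11.5% and 18.1% at 24 h. Markers of other cell types moved in the same NCI-N87 libraries at 24 h. KRT18 (log2FC -1.87) and KRT8 (-1.37) were regulated lower among 7 epithelial markers, whose summed level went from 18710 to 21680 CPM in untreated cells to 12610 to 14400 CPM after Afa. The fibroblast marker COL3A1 (4.51), the endothelial markers CDH5 (2.35) and VWF (1.45) and the immune cell marker LYZ (1.07) were regulated higher. In untreated cells COL3A1 was at 0.0610 CPM or less and CDH5 at 0.1475 CPM or less. The sums were 12.2 to 18.8 CPM untreated and 27.2 to 32.3 CPM after Afa for 7 fibroblast markers, and 1.22 to 1.47 CPM and 3.25 to 4.28 CPM for 4 endothelial markers, with PDGFRA and KDR at 0 in both groups. The part of these markers in the cytokine changes was not tested.

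**Figure D4:**
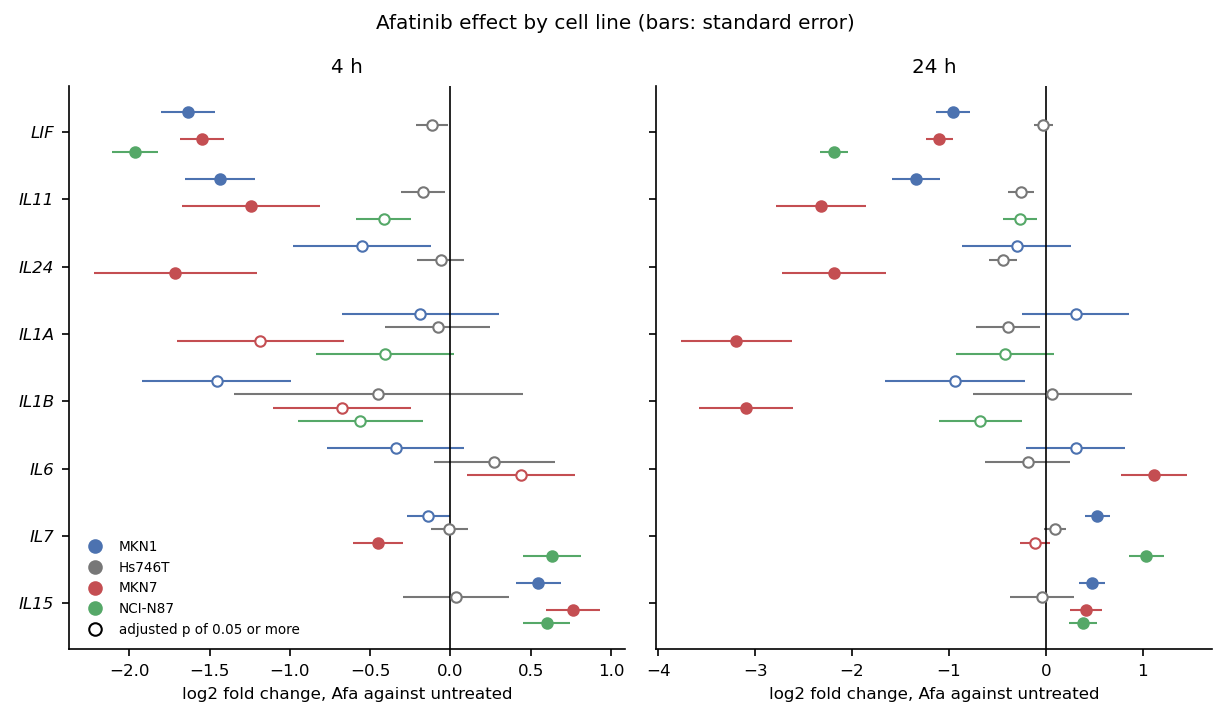
Log2 fold change of afatinib against untreated cells for 8 genes in each line where they were tested, at 4 h and 24 h, with bars for the standard error of the edgeR fit and open symbols where the adjusted p was 0.05 or more. LIF lay between -2.18 and -0.96 in MKN1, MKN7 and NCI-N87, and the Hs746T symbols are all open.

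Hs746T cells, which like MKN1 received EGF, cetuximab, trastuzumab and afatinib, showed no regulated cytokine gene in any of 16 treatment comparisons. In edgeR 0 of 128 tests of these genes passed, with 3 at an unadjusted p below 0.05, and DESeq2 called 0. These 3 all concerned IL24 at 24 h, which was at 9.37, 8.98 and 10.2 CPM in untreated cells, at 7.19, 6.28 and 7.69 CPM after Afa and at 7.36, 5.81 and 8.30 CPM after Tra+Afa. The Afa libraries lay below the untreated ones without overlap, a log2FC of -0.44 ± 0.14 that did not pass the test (edgeR adjusted p = 1, and 0.272 with the replicate number as a block). Against Tra alone, at 8.59, 8.10 and 10.4 CPM, Tra+Afa was lower at each replicate number but the groups overlapped (-0.35 ± 0.14, edgeR adjusted p = 1). Over all genes edgeR and DESeq2 likewise called 0 (0% regulated in each comparison), with 125 to 1371 genes at an unadjusted p below 0.05. Across all 42 Hs746T libraries LIF ranged from 46.7 to 65.6 CPM, IL15 from 10.9 to 23.4 CPM, IL11 from 8.34 to 19.98 CPM, IL7 from 8.08 to 12.4 CPM and IL24 from 5.31 to 10.9 CPM. These levels are well above the floor of 3 counts, so low counts did not keep these 5 genes from being tested.

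Trastuzumab alone gave no regulated cytokine gene in MKN1, MKN7 or NCI-N87 either. In edgeR 0 of 46 tests in 6 comparisons passed, with 2 at an unadjusted p below 0.05, and DESeq2 called 0. The share of all genes regulated was 0% in each, with 158 to 786 genes at an unadjusted p below 0.05. LIF in NCI-N87 cells after Tra was at 155, 221 and 189 CPM at 4 h and at 137, 128 and 135 CPM at 24 h, which overlapped the untreated range at both times.

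Afatinib added to trastuzumab was compared with trastuzumab alone. In MKN1 cells at 4 h LIF was at 17.4, 19.3 and 17.0 CPM after Tra and at 5.41, 7.28 and 5.53 CPM after Tra+Afa (log2FC -1.65 ± 0.17, edgeR adjusted p = 6.96e-08). IL11 in the same libraries was at 23.7, 24.7 and 18.8 CPM after Tra and at 9.15, 10.5 and 7.55 CPM after Tra+Afa (-1.39 ± 0.22, edgeR adjusted p = 7.93e-05). The 2 groups did not overlap in either gene. At 24 h IL11 was at 4.47, 6.65 and 8.78 CPM after Tra and at 2.41, 2.72 and 3.19 CPM after Tra+Afa (-1.41 ± 0.24, edgeR adjusted p = 4.84e-05), and the log2FC of LIF was -0.90 ± 0.17 (edgeR adjusted p = 0.000209).

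In MKN7 cells at 4 h LIF was at 82.4, 67.0 and 80.3 CPM after Tra and at 33.7, 29.3 and 32.9 CPM after Tra+Afa (log2FC -1.34 ± 0.14, edgeR adjusted p = 6.36e-07). IL24 was at 40.5, 29.4 and 47.2 CPM after Tra and at 12.3, 11.3 and 16.4 CPM after Tra+Afa (-1.63 ± 0.50, edgeR adjusted p = 0.0249). Both genes were again separated between the groups. With the replicate number as a block, IL1A (-1.21, adjusted p = 0.0115) and IL11 (-1.13, adjusted p = 0.00298) were also regulated lower at 4 h. At 24 h IL1A was at 1.55, 1.31 and 4.71 CPM after Tra and at 0.689, 0.370 and 0.662 CPM after Tra+Afa (-2.25 ± 0.56, edgeR adjusted p = 0.00270), and IL1B was at 0.600, 0.436 and 1.48 CPM and at 0.409, 0.222 and 0.117 CPM (-1.86 ± 0.49, edgeR adjusted p = 0.00388). IL11 at 24 h was at 9.50, 6.27 and 18.4 CPM after Tra and at 3.68, 2.07 and 3.45 CPM after Tra+Afa (-2.01 ± 0.47, edgeR adjusted p = 0.00148), and IL24 was at 9.34, 7.43 and 27.5 CPM and at 4.05, 2.66 and 6.97 CPM (-1.81 ± 0.54, edgeR adjusted p = 0.00925). Replicate 3 after Tra alone was the highest of its group in all 4 genes. The IL1B call was lost without replicate 3 (adjusted p = 0.136), the IL24 calls without replicate 1 (0.248 at 4 h and 0.0704 at 24 h), and that at 4 h also without replicate 2 (0.0653).

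In NCI-N87 cells LIF after Tra+Afa was at 33.0, 50.8 and 44.5 CPM at 4 h and at 37.4, 35.1 and 35.7 CPM at 24 h, far below the Tra values given above, with log2FCs of -2.21 ± 0.14 (edgeR adjusted p = 5.36e-10) and -2.17 ± 0.15 (edgeR adjusted p = 4.63e-11). IL7 at 24 h was at 1.78, 1.99 and 1.56 CPM after Tra and at 5.15, 5.57 and 3.99 CPM after Tra+Afa (1.18 ± 0.18, edgeR adjusted p = 9.50e-06). Across the comparisons of Tra+Afa with Tra, regulated members numbered 2 and 1 in MKN1 (4 h and 24 h), 2 and 4 in MKN7, and 1 and 2 in NCI-N87. The share of all genes regulated in them was 0.631%, 4.22%, 2.96%, 9.70%, 4.00% and 28.2% in the same order.

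Untreated MKN1 cells changed between the 2 time points themselves. From 4 h to 24 h LIF, IL11, IL1B, IL6 and IL24 were regulated lower, 5 of the 9 genes tested, against 1.80% of all genes. IL6 was at 3.51, 3.40 and 2.03 CPM at 4 h and at 1.08, 0.763 and 0.447 CPM at 24 h (log2FC -2.13 ± 0.48, edgeR adjusted p = 0.000687). IL24 was at 0.344, 0.465 and 0.333 CPM at 4 h, above the 24 h values given earlier (-1.52 ± 0.48, edgeR adjusted p = 0.0129). The log2FC was -2.12 ± 0.23 for IL11 (edgeR adjusted p = 9.86e-09), -2.25 ± 0.51 for IL1B (edgeR adjusted p = 0.000817) and -1.42 ± 0.17 for LIF (edgeR adjusted p = 6.05e-08). No library of one time overlapped the other in these 5 genes. The fibroblast markers DCN (1.82) and PDGFRB (1.79) and the immune cell markers PTPRC (3.31) and CSF1R (1.06) were regulated higher over the same interval. So was the epithelial marker CLDN4 (1.15). The summed level of 7 epithelial markers was 18090 to 19890 CPM at 4 h and 17840 to 19150 CPM at 24 h. The part of these markers was not tested. DCN was at 0.454 CPM or less and PTPRC at 0.2181 CPM or less in these libraries. The IL24 call was lost without replicate 1 (adjusted p = 0.0765) or 2 (0.0734). In untreated MKN7, NCI-N87 and Hs746T cells no member was regulated between the times, where 1.76%, 0.0472% and 0.129% of all genes were, although with the replicate number as a block IL24 was regulated lower in MKN7 (-1.26, adjusted p = 0.000406). LIF in MKN7 fell by 0.64 ± 0.14 on the log2 scale (edgeR adjusted p = 0.00332, and 0.0612 and 0.0513 without replicate 1 and 2).

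Whether the effect of afatinib differed among the 4 lines was tested directly with an F test in edgeR. At 4 h it differed in 4 of 9 genes, LIF (adjusted p = 3.49e-11), IL7 (0.000376), IL24 (0.0331) and IL11 (0.0406), against 7.47% of all genes. Of these LIF alone passed whichever replicate was left out, while the IL24 and IL11 differences were lost without any 1 replicate (adjusted p = 0.0730 to 0.262 and 0.141 to 0.259) and that of IL7 without replicate 2 (0.109). At 24 h it differed in 6 of 9, LIF (3.11e-14), IL7 (7.28e-07), IL11 (2.89e-06), IL1A (1.73e-05), IL24 (0.00153) and IL1B (0.00859), against 40.7% of all genes. The IL1B difference was lost without replicate 2 (0.0804) or 3 (0.161) and that of IL1A without replicate 3 (0.0822). The rise of IL15 was not shown to differ among lines (edgeR adjusted p = 0.318 at 4 h and 0.445 at 24 h), though with the replicate number as a block it did (1.83e-06 and 0.000837). Nor was the change of IL6 at 24 h shown to differ among lines (edgeR adjusted p = 0.335).

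The EGF effect was larger in MKN1 than in Hs746T for LIF at both times, with log2 differences of 1.78 ± 0.20 at 4 h (edgeR adjusted p = 8.60e-10) and 1.38 ± 0.21 at 24 h (edgeR adjusted p = 9.75e-07). At 24 h it was also larger for IL11 (1.98 ± 0.37, edgeR adjusted p = 8.47e-05) and IL1B (3.21 ± 0.92, edgeR adjusted p = 0.0150). IL11 at 4 h narrowly missed the threshold (1.30 ± 0.36, edgeR adjusted p = 0.0535) and passed with the replicate number as a block (adjusted p = 0.000354). The share of all genes that differed was 0.920% at 4 h and 7.93% at 24 h. Without replicate 2 the IL1B difference had an adjusted p of 0.255.

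Between the times, the EGF effect in MKN1 was not shown to differ for any of the 9 genes (9.46% of all genes differed, and IL1B gave 1.77 ± 0.63, edgeR adjusted p = 0.0717). The afatinib effect differed for IL7 in MKN1 (0.67 ± 0.19, edgeR adjusted p = 0.0437, against 2.77% of all genes) and for IL1B in MKN7, where the fall was larger at 24 h (-2.42 ± 0.66, edgeR adjusted p = 0.0136, against 18.0%). With the replicate number as a block the afatinib effect also differed between the times for IL1A (-1.84, adjusted p = 0.0131) and LIF (0.44, 0.0136) in MKN7 and for LIF in MKN1 (0.69, 0.0200), and the EGF effect for IL1B in MKN1 (1.77, 0.0134). In NCI-N87 it differed for none of them, against 35.8% of all genes. The IL7 difference was lost without any 1 replicate (adjusted p = 0.166 to 0.311) and that of IL1B without replicate 1 (0.104).

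IL18, the IL-1 family member that is matured by caspase-1, was listed at 0 in every library. Its identifier lies at chr11:112143251-112164117 on the minus strand, and 1970 of 19674 protein-coding identifiers (10.0%) were likewise at 0 in every library. The neighbouring gene SDHD, a subunit of the mitochondrial respiratory chain that cells in general use, had 0 to 3 counts, whereas TIMM8B next to it had 1075 to 6079. The gene AP002884.3, at chr11:112086903-112193805 on the plus strand, overlaps both IL18 and SDHD and had 6 to 104 counts. The zeros of IL18 are therefore reported as listed values and not as a level.

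The wider interleukin pathway was followed in 100 further genes that encode receptors, antagonists and processing enzymes, other cytokines, signal transducers and feedback targets. EGF in MKN1 left 2 of 67 tested regulated higher at 4 h (2.99%, beside 1.23% of all genes), IL6R, the IL-6 receptor (log2FC 1.13), and TNFAIP3, an inhibitor of NF-kB signaling (1.01). At 24 h 1 was higher, IL2RB, a receptor chain for IL-2 and IL-15 (1.48), and 3 were lower, the IL-11 receptor IL11RA (-1.06), the cytokine IL34 (-1.80) and the NF-kB cofactor NFKBIZ (-1.2). These were 1.49% and 4.48% of the genes tested, beside 2.11% and 6.24% of all genes. IL2RB was at 0.2351 CPM or less in untreated MKN1 cells, near the floor of 3 counts. The median log2FC over the 67 genes was 0.10 at 4 h and -0.01 at 24 h, beside 0.00 and -0.05 over all genes. Cetuximab alone left none of the 67 regulated at either time. Of all genes 0.0757% were higher and 0.257% lower at 4 h, and 1.00% and 0.328% at 24 h. Afatinib in MKN1 left none at 4 h, beside 0.242% of all genes higher and 0.439% lower. At 24 h it left 1 lower, the IL-7 receptor IL7R (-1.17). That was 1.49% lower, beside 1.02% of all genes.

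With afatinib in MKN7, 1 of 69 pathway genes was regulated higher and 6 lower at 4 h (1.45% and 8.7%, beside 1.81% and 1.59% of all genes). The higher one was IL22RA1 (1.74), a receptor chain used by IL-22, IL-20 and IL-24, and the lower ones included the STAT3 feedback inhibitor SOCS3 (-1.26), the inflammasome sensor NLRP3 (-1.34) and IL36B (-2.19). At 24 h 8 were higher, among them IL2RB (2.52), CASP1, which matures IL-1β and IL-18 (1.57), and the kinase gene JAK3 (1.19), and 6 were lower, among them the decoy receptor IL1R2 (-2.61), IL36B (-2.36) and NLRP3 (-1.98). These were 11.6% and 8.7% of the pathway genes at 24 h, beside 10.3% of all genes higher and 3.25% lower. IL2RB was at 0.2481 CPM or less in untreated MKN7 cells. The log2FC of IL36B had a standard error of 0.61 at 4 h and 0.80 at 24 h. In NCI-N87 1 of 72 was higher, IL22RA1 (1.29), and 3 were lower at 4 h (1.39% and 4.17%, beside 2.03% and 1.22% of all genes). At 24 h 11 were higher and 12 lower. The largest changes at 24 h were in CASP1 (2.81), JAK3 (1.66) and IL5 (1.65) among the higher genes and in IL10 (-5.14), IL19 (-2.49) and the STAT feedback inhibitor SOCS2 (-1.92) among the lower ones. The log2FC of IL10 had a standard error of 0.98. The shares of 15.3% higher and 16.7% lower in NCI-N87 at 24 h stand beside 18.1% and 11.5% of all genes. The median log2FC over the pathway genes was -0.11 in MKN7 and -0.16 in NCI-N87 at 4 h, beside 0.01 and 0.02 over all genes, and 0.09 and 0.08 at 24 h, beside 0.04 and 0.03.

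Genes whose pattern over conditions was most like that of each cytokine were named by Pearson's r between mean log2 levels of the 44 conditions, centred within each cell line, over 17677 genes. For LIF these were the transcription factor gene MYC (r = 0.984), the phosphate transporter gene SLC20A1 (0.976) and CSF2, which encodes the cytokine GM-CSF (0.966). For IL11 they were PODXL (0.971), HMGA2 (0.959) and ARID3B (0.946), and for IL15 PLAG1 (0.963), APOLD1 (0.962) and RBM23 (0.953). The genes most like IL1B were the integrin gene ITGA2 (0.917), RGS4 (0.907) and AC078923.1 (0.902), those most like IL7 were ANGPT1 (0.905), KLF3 (0.903) and LDLRAD1 (0.898), and those most like IL24 were SLC37A2 (0.897), LTBP2 (0.892) and EFNB1 (0.890). Likeness was weaker for IL6, with HDAC9 first (0.844), and for IL1A, with ARHGAP22 first (0.771). The 44 points share libraries and depth between genes, and with Spearman's rho 0 or 1 of the 3 genes stayed the same for each cytokine.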

How the data were processed

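Raw counts per Ensembl gene identifier were deposited by the authors for each poly(A) library in a table of its own, without pooling of replicates. Directional libraries were sequenced paired end. The submitters' processing notes name Trim Galore, STAR and the build hg38, while the read counter is not given in the sources used here. Groups came from the sample labels. Of the 65217 identifiers, 8404 had no GENCODE release 29 name, holding 0.0422% of the counts, and all 10 cytokine genes and 131 list genes were matched. No library repeated another.

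Counts were tested in R 4.3.3 with edgeR 4.0.16 (TMM scaling, filterByExpr set to min.count 10 and min.total.count 15, glmQLFit and glmQLFTest, Benjamini-Hochberg adjustment over all genes tested), with all libraries of a line in 1 fit. Untreated lines were compared in a fit of the untreated libraries, and treatment effects between lines in a fit of all libraries. Tra+Afa was compared with Tra. Log2FCs are on the TMM scale and CPM values on library totals. Interactions were called by adjusted p alone. The method was tested on simulated data with 200 changed genes. Alternatives were DESeq2 1.42.0, only the compared groups, library size alone, no filter, a replicate block and leaving out each replicate. Tables were made in Python 3.11.15.

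Same-numbered replicates deviated together from their group means in every compared pair of Hs746T (lowest r = 0.462), MKN7 (0.332) and NCI-N87 (0.259) and of MKN1 except at 24 h for Cet and Tra+Afa against untreated cells and Tra+Afa against Tra (lowest r = -0.06), for which the numbers were not taken to pair samples. A further library number in the labels, whose meaning is not stated, restarts between the 4 h and 24 h libraries of Hs746T replicate 2. Some comparisons between lines, and those between times in Hs746T, therefore cross it at that replicate number. The cytokine genes and all gene lists were chosen with earlier results of these data known. In the comparisons described, values are given for every regulated member, and from each gene list only regulated genes are named, at most the 3 with the largest changes. The summed level of immune cell markers is not reported here.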

Additional observations from a re-analysis of the deposited data

Results flagged for a closer look

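Several cytokine genes answered the same treatment differently in different cell lines or at different times, by tests of the difference itself in edgeR. The effect of afatinib at 4 h differed among the 4 lines in LIF (adjusted p = 3.49e-11), IL7 (0.000376), IL24 (0.0331) and IL11 (0.0406). Of these 4, only LIF and IL7 still passed without replicate 1 or 3, and only LIF without replicate 2. At 24 h it differed in LIF (adjusted p = 3.11e-14), IL7 (7.28e-07), IL11 (2.89e-06), IL1A (1.73e-05), IL24 (0.00153) and IL1B (0.00859). The IL1B difference was lost without replicate 2 or 3, and that of IL1A without replicate 3. At 4 h IL7 fell with afatinib in MKN7 (log2FC -0.45) and rose in NCI-N87 (0.63). The fall was lost without any 1 replicate (edgeR adjusted p = 0.128 to 0.190), and the rise without replicate 1 (0.104) or 2 (0.192).

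The effect of EGF was larger in MKN1 than in Hs746T for LIF, by 1.78 on the log2 scale at 4 h and by 1.38 at 24 h, and at 24 h also for IL11 (1.98) and IL1B (3.21). The IL1B difference was lost without replicate 2 (edgeR adjusted p = 0.255). The effect of afatinib changed from 4 h to 24 h for IL7 in MKN1 (log2 difference 0.67) and for IL1B in MKN7 (-2.42). This IL7 difference was lost without any 1 replicate (edgeR adjusted p = 0.166 to 0.311), and that of IL1B without replicate 1 (0.104). No explanation was tested for any of these differences.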

How the results depend on the processing

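Over 147 log2 fold changes of members that were called and 1033 values under alternatives, 905 stayed on their side of the threshold, 128 lost the call and 0 reversed. The calls lost numbered 2 in DESeq2, 9 with scaling by library size alone, 8 without the filter, 15 with only the compared groups, 0 with the replicate block, and 41, 26 and 27 without replicate 1, 2 and 3. DESeq2 and the compared groups alone were run for neither untreated lines nor interactions, and the fit without the filter for neither untreated lines nor differences between lines.

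Scaling by library size alone moved the median of all genes by -0.196 (MKN1 EGF, 24 h), -0.106 (4 h), -0.120 (EGF+Cet, 24 h), 0.172 (MKN1 24 h against 4 h), 0.115 (MKN7 Afa, 24 h) and 0.260 (NCI-N87 Afa, 24 h). It left 1 member regulated for EGF+Cet at 4 h in place of 2, 0 for Cet at 24 h in place of 1, and 0 for the time difference of afatinib in MKN1. EGF+Cet at 4 h also gave 1 without the filter, in DESeq2 and with only the compared groups, which gave 3 in place of 5 for EGF at 24 h and 4 in place of 2 for MKN7 Tra+Afa against Tra at 4 h. Without the filter the time difference of afatinib gave 0 members in MKN1 and 2 in MKN7.

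By adjusted p alone the counts were 1 (4 h) and 2 (24 h) for EGF+Cet against EGF, 4 for EGF+Cet at 24 h, 3 for Cet at 24 h, 4 for MKN1 Afa at 24 h, 3 for MKN1 Tra+Afa against Tra at 24 h, 5 for MKN7 Afa at 4 h, 1 for MKN7 24 h against 4 h, 3 each for NCI-N87 Afa and Tra+Afa against Tra at 4 h, and 8 each for MKN1 and for NCI-N87 against MKN7.

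With the replicate block the EGF difference between lines covered 2 members at 4 h and 5 at 24 h, the time difference 1 (MKN1 EGF), 2 (MKN1 Afa) and 3 (MKN7 Afa), EGF+Cet against EGF at 24 h 1, MKN7 Tra+Afa against Tra at 4 h 4 and MKN7 24 h against 4 h 1. For Cet and Tra+Afa in MKN1 at 24 h the numbers were not taken to pair samples.

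Leaving out 1 replicate gave 2 to 3 members for EGF at 4 h, 3 to 5 at 24 h, 1 in every case for EGF+Cet at 4 h, 0 to 2 at 24 h, 1 to 2 for Cet at 4 h, 0 to 1 at 24 h, 1 to 2 for MKN1 Afa and Tra+Afa against Tra at 24 h, 1 to 2 for MKN7 Afa and Tra+Afa against Tra at 4 h, and 1 to 2 for NCI-N87 Afa at 24 h. It gave 0 to 1 for Hs746T and for MKN7 24 h against 4 h and for the time differences of MKN1 EGF and MKN7 Afa, 0 in every case for that of MKN1 Afa, and 1 to 3 for the afatinib difference among lines at 4 h. The cause was not tested, though these fits hold fewer libraries. Genes at a few counts per library, IL33 and IL1B in MKN1 foremost, are limited by depth.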
